A study of Rattus norvegicus with 8 samples.

Results

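The response to TGF was described in AmeloD-overexpressing SF2 cells, using the 4 AmeloD libraries of a series of 8. SF2 is an epithelial cell line from the cervical loop of the rat incisor, the niche that supplies the enamel-forming ameloblasts, and AmeloD, the product of the Ascl5 gene, is a transcription factor of the basic helix-loop-helix class found in dental epithelium. The compared groups were AmeloD cells labelled N (1 library with the plasmid label pCMV6 and 1 with pCMV6.ODAM) and AmeloD cells labelled TGF (again 1 library with each plasmid label). All 4 carried the AmeloD genotype and a pCMV6 plasmid, and Odam encodes odontogenic ameloblast-associated protein. The 4 Control libraries, with the same plasmid and TGF labels but without AmeloD overexpression, served to show where the AmeloD response differed. They also entered the fit, where they helped to estimate the spread behind the AmeloD p-values and the plasmid term. The labels spell out neither N nor TGF, and give no TGF dose, duration or plasmid delivery, nor whether the AmeloD line is a clone. No combination had a replicate, so the residual spread includes any plasmid effect that differed between the genotypes or TGF labels. Nothing in the labels says that the libraries came from separate cultures, and p-values then measure only the spread between these libraries, which may be technical. Of the 30240 genes in the table, 7155 had at least 1 CPM (reads of a gene scaled to the library total) in at least 2 of the 4 AmeloD libraries and were tested.

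The TGF-beta pathway works through secreted ligands that are stored in a latent form in the matrix and released with the help of integrins. Active ligand brings together type I and type II receptor kinases, which phosphorylate the receptor SMADs. These join SMAD4, enter the nucleus and bind short DNA elements beside other factors such as AP-1 and the TEAD proteins. Typical targets encode matrix proteins, protease inhibitors, actin regulators and inhibitors that feed back on the pathway. In epithelia the pathway is known for slowing proliferation and for loosening cell junctions, and in the tooth it takes part in ameloblast differentiation.

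The AmeloD libraries held 10568146 (pCMV6 N), 13484330 (pCMV6.ODAM N), 10823522 (pCMV6 TGF) and 13668736 reads (pCMV6.ODAM TGF), of which 15.7% to 17.2% lay in the table, and 12453 to 12907 genes had a read. Tested genes held 98.7% to 98.9% of the table's reads. Ascl5 had 0 reads in every library of both genotypes, where a count of 0 allows up to 0.169 to 0.284 CPM per library (3 reads, counting error only). In a 3′-end library a construct without the native transcript end need not be counted, so this neither checks nor contradicts the AmeloD label. Odam had 0 reads in both AmeloD pCMV6 libraries and 1 (N) and 3 reads (TGF) in the AmeloD pCMV6.ODAM libraries. The Control libraries held 1 (N) and 0 reads (TGF) of Odam with pCMV6, and 10 (N) and 17 reads (TGF) with pCMV6.ODAM. The AmeloD pCMV6.ODAM N library stood apart in Gsta4, a glutathione transferase gene, with 1428 reads against 19 to 38 in the other AmeloD libraries. As for the epithelial label, Krt5, Krt17, Cdh1 and Epcam were read in all libraries. The 11 tested markers of dental epithelium summed to 1091 to 1205 CPM per AmeloD library, with 1164 and 1091 CPM under N and 1205 and 1155 CPM under TGF. Markers of leukocytes summed to 3.26 to 4.07 CPM under N and 2.96 to 4.32 CPM under TGF, those of endothelium to 0.593 to 0.852 and 1.48 to 2.05 CPM, and 1 gene of each list was tested and did not pass. The endothelial sum was higher under TGF, and its part in the results was not tested; the defining endothelial genes Pecam1 and Cdh5 had 0 reads under N and 1 each under TGF, and the leukocyte gene Ptprc had 1 and 0. Fibroblast markers summed to 149 and 165 CPM under N and 171 and 162 CPM under TGF, nearly all of it S100a4 and Col3a1, and 0 of the 3 tested passed. The enamel matrix genes Amelx, Ambn, Enam and Amtn had 0 reads in all libraries.

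In AmeloD cells the largest rises under TGF were those of the TGF-beta feedback inhibitor gene Pmepa1, the matricellular growth factor gene Ccn2 and the serine protease gene Prss23. Single members of several lists rose as well: 2 of 14 tested matrix genes, Fn1 and Loxl2, 4 of 15 laminin and integrin genes, Lama3 among them, and 4 of 20 actin and contractile genes, Actb among them. Fewer genes fell, among them the prostaglandin reductase gene Ptgr1, the alcohol dehydrogenase gene Adh7, Fam25a and the chaperone gene Hsp90aa1. Junction genes, most keratins, replication genes and mitosis genes did not pass the test. In such bulk RNA, more cells expressing a gene and more RNA per cell cannot be told apart. Of the 7155 genes, 64 passed (0.894%): 53 rose (0.741%) and 11 fell (0.154%) in limma at a Benjamini-Hochberg adjusted p under 0.05, and 773 had an unadjusted p under 0.05. The log2 change exceeded 1 in size for 31 of the rises and 9 of the falls. The test is limma on log2(CPM + 1), which understates changes of low genes, and changes are given as TGF minus N on that scale, ± SE. Values are listed in the order pCMV6, pCMV6.ODAM.

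**Figure D1:**
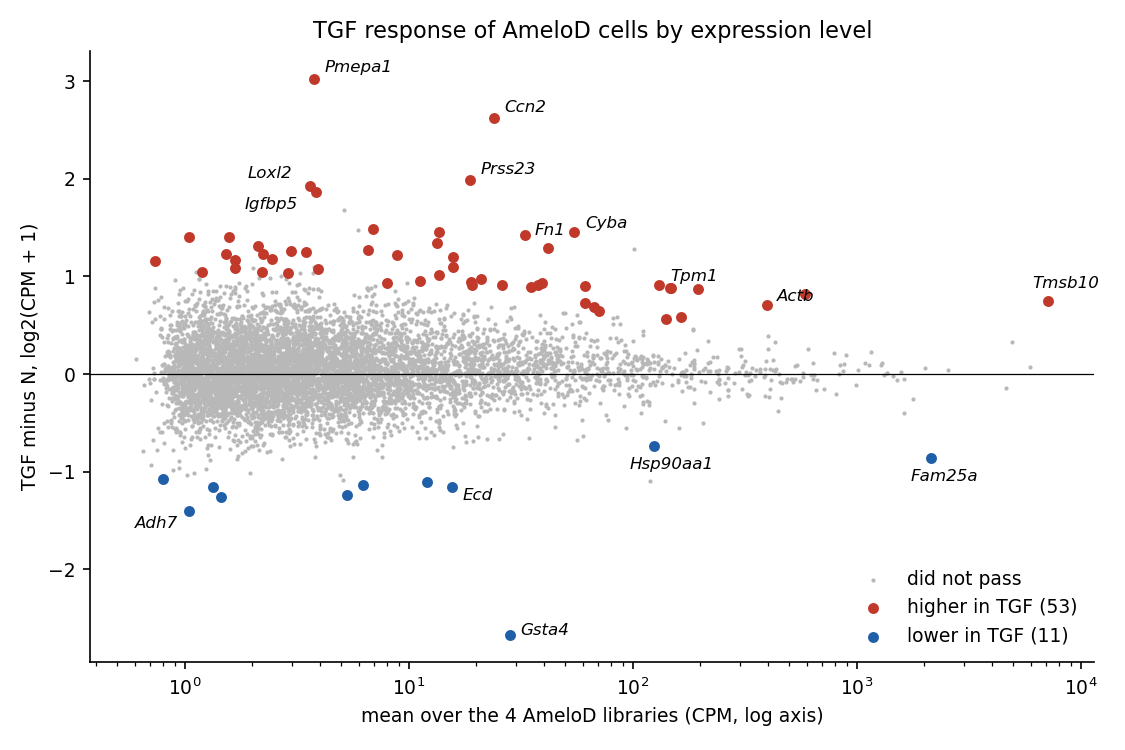
Change of each tested gene in AmeloD cells (vertical axis, TGF minus N in log2(CPM + 1)) against its mean level over the 4 AmeloD libraries (horizontal log axis, CPM); each point is a gene. The 53 genes that rose are red, the 11 that fell blue and the others grey; Pmepa1 and Ccn2 lie highest and Gsta4 lowest among the coloured points.

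In all 64 genes both TGF libraries lay on the same side of both N libraries. Of all tested genes, 21.7% had both TGF libraries above both N libraries and 15.5% below, so this separation was common without a call. The share of rises among the calls depended on the scaling: it was 82.8% with the deposited CPM, 73.8% of 65 calls with TMM scaling and 68.1% of 72 calls with the libraries shifted to the same median, as the median of all genes was 0.03, -0.01 and -0.02 under these. With 1 library left out at a time, 17 of the 64 calls (15 rises, 2 falls) held without each of the 8 libraries. The 17 included Ccn2, Pmepa1, Prss23, Fn1, Loxl2, Igfbp5, Cyba, Fermt1, Klhl8, Lama3, Lgals1, Tmsb10, Tsc22d1, Fam25a and Ptgr1. The AmeloD pCMV6.ODAM TGF library carried the most: without it 38 of the 64 calls were lost, against 30 without pCMV6.ODAM N, 21 without pCMV6 N and 16 without pCMV6 TGF. The total number of calls was then 33, 46, 80 and 120. Other scalings and tools also ended calls: TMM scaling ended 5, among them Tmsb10, Fst and Itgb1, the same-median shift 4 and edgeR 13. For DESeq2 11 losses were counted, but it called 46 genes in all, so more of the 64 did not pass there. Leaving out the filter on low values ended 23 and adding a genotype by plasmid term ended 19. The main fit used all 8 libraries to estimate the spread. With the 4 AmeloD libraries alone and the plasmid label as a term, 9 genes passed (Pmepa1, Ccn2, Prss23, Loxl2, Igfbp5, Cyba, Fn1, Fermt1 and Klhl8).

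Pmepa1 encodes a membrane protein that sequesters receptor SMADs and so limits TGF-beta signalling. It had 0 and 1 read in the N libraries and 92 and 89 reads in the TGF libraries, or 0 and 0.0742 CPM against 8.50 and 6.51 CPM. The N libraries were thus nearly empty of a transcript that both TGF libraries held, and Pmepa1 reached the level for a test through the TGF libraries only. The change was 3.03 ± 0.27 (limma adjusted p = 1.28e-08). On the pooled reads the TGF to N ratio was 178, with an exact 95% interval of 31.5 to 7059, which compares these libraries' reads and covers counting error only. Ccn2, a secreted matricellular protein that binds growth factors and integrins, was at 7.66 and 4.45 CPM under N and 48.8 and 35.1 CPM under TGF. Each TGF library was several-fold above each N library, and the change was 2.63 ± 0.22 (limma adjusted p = 4.34e-09). In mRatBN7.2, Pmepa1 (ENSRNOG00000050404) lies on chromosome 3 from 162012751 to 162060454 and Ccn2 (ENSRNOG00000015036) on chromosome 1 from 20802199 to 20805734, both on the minus strand.

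The promoter windows of 3 of the strongly risen genes are shown, since these genes moved together. They run from 250 bases before to 50 after the RefSeq start in GRCr8, a later build than that of the gene positions above: Ccn2 at chr1:22624565-22624864 (minus strand), Pmepa1 at chr3:182478600-182478899 (minus strand) and Palldl1 at chr16:32985002-32985301 (plus strand). Capitals mark CAGAC, the core letters that SMAD proteins bind, or its reverse complement GTCTG, and GGAATG, the letters that TEAD proteins bind.
Ccn2: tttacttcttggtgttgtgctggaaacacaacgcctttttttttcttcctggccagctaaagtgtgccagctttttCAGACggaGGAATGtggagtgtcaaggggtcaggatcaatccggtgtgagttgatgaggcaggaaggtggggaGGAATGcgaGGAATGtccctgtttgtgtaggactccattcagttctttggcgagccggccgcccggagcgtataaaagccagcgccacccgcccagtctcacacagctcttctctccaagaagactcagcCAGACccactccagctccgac
Pmepa1: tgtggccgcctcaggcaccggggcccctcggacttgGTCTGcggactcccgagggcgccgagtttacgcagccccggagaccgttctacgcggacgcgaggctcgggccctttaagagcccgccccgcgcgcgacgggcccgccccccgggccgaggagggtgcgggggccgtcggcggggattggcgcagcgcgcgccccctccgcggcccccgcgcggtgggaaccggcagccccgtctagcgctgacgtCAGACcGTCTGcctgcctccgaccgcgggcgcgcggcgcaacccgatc
Palldl1: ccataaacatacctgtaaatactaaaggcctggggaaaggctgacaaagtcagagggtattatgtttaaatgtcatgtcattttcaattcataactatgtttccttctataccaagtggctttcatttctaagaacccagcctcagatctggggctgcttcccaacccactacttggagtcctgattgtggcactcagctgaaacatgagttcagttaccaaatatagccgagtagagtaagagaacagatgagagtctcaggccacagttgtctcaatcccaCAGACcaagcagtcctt
In Ccn2 the CAGAC letters stood at positions -174 and 30 from the start and GGAATG at -166, -101 and -92. In Pmepa1, CAGAC or its complement stood at -214, 3 and 9, and in Palldl1 at 34. Windows of 38 of the 53 risen genes and 9 of the 11 fallen genes were matched by symbol. CAGAC on either strand was in 25 of the 38 risen windows (65.8%), in 5 of the 9 fallen ones, in 48.2% of the 5395 windows of tested genes and in 49.97% of all 27457 windows. GGAATG on either strand was in 8 of the 38 (21.1%), in 1 of the 9 fallen ones and in 10.7% of tested and 13.9% of all windows. The AP-1 letters TGANTCA were in 4 of the risen windows (10.5%) and in 3 of the 9 fallen ones, against 5.12% of tested and 7.33% of all windows. A CArG box, bound by serum response factor, was in 2 risen (5.26%) and 0 fallen windows, against 1.43% and 1.64%. The palindrome GTCTAGAC was in 0 of the risen and 0 of the fallen windows and in 0.215% of all windows. A match is a description of these letters, and no binding was measured.

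Among the pathway's ligand, receptor and SMAD genes that were tested 0 passed, and many of those listed were too low for a test. Of 17 listed ligand and latency genes 6 were tested and 0 passed, with a median change of 0.63 against 0.03 over all genes tested. The count and the median describe only the genes that reached the level for a test, 2 of them in the TGF libraries only. Inhba, which encodes the activin A subunit, was at 41.1 and 21.4 CPM under N and 43.1 and 48.4 CPM under TGF (0.60 ± 0.19, adjusted p = 0.154). Its pCMV6 libraries were nearly level, and the difference came from the pCMV6.ODAM pair. Itgb6, whose integrin releases latent TGF-beta, was at 0.568 and 0.816 CPM against 1.85 and 2.49 CPM (0.90 ± 0.27, adjusted p = 0.113); it reached the level for a test only in the TGF libraries, as did Itgav. Tgfb1 had 4 reads under N and 9 under TGF, 8 of them in the pCMV6.ODAM TGF library, Tgfb2 had 0 and 4, and Tgfb3 had 1 and 0. These counts were too low for a test. So were those of Thbs1, another member of this list, with 0 and 2 reads under N and 23 and 13 under TGF.

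The type II receptor gene Tgfbr2, which binds the ligand, was at 8.42 and 8.23 CPM under N and 10.4 and 10.5 CPM under TGF. The TGF libraries were higher by less than the test resolved (0.30 ± 0.21, adjusted p = 0.679). Tgfbr1, the type I receptor gene, had 5 and 2 reads in all. Of 13 listed receptor genes 2 were tested and 0 passed. Of 6 tested SMADs and SMAD partners 0 passed and the median was 0.00, and the signal transducer Smad2 was at 1.89 and 2.45 CPM against 3.05 and 2.19 CPM, overlapping between the groups. Smad3 had 2 reads under each label and Smad4 had 9 and 13. Of 3 tested BMP targets and Id genes 0 passed; the differentiation inhibitor genes Id1 and Id3 changed by -0.72 (adjusted p = 0.239) and -0.35 (adjusted p = 0.679).

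Of 8 tested feedback inhibitors 2 rose, 0 fell and 6 did not pass (median 0.17). The risen genes were Pmepa1 and Fst, whose product follistatin traps activin. Pmepa1 reached the level for a test in the TGF libraries only, so the count and the median describe the genes that reached it. Fst was at 54.5 and 55.4 CPM under N and 90.5 and 82.8 CPM under TGF, with no overlap (0.65 ± 0.16, adjusted p = 0.0312). Its call was lost without each of 6 libraries, with an adjusted p of up to 0.210 without AmeloD pCMV6 N. Tgif1, a SMAD corepressor gene, had a change of 0.57 (adjusted p = 0.360), and the ubiquitin ligase genes Smurf1 and Smurf2 of 0.15 and 0.10. The classical feedback genes Skil and Smad7 were too low for a test. Skil had 4 and 1 reads under N and 1 and 16 under TGF, so its pooled ratio of 3.34 (exact 95% interval 1.18 to 11.6) rested on the pCMV6.ODAM TGF library alone. Smad7 had 0 and 2 reads against 7 and 3, a pooled ratio of 4.91 (1.05 to 46.1).

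Of 33 listed TGF-beta target genes 15 were tested: 5 rose, 10 did not pass and 0 fell. Their median change was 0.57 against 0.03 over all genes. The risen members included Ccn2, the fibronectin gene Fn1, the tropomyosin gene Tpm1 and the integrin beta 1 gene Itgb1. Bhlhe40, a transcriptional repressor gene, was at 2.08 and 1.11 CPM against 3.79 and 4.83 CPM and missed the threshold (1.05 ± 0.27, adjusted p = 0.0565). The cell cycle inhibitor genes Cdkn1a and Cdkn2b did not pass, at -0.10 (adjusted p = 0.914) and 0.54 (adjusted p = 0.469), nor did the transcription factor gene Snai2 (-0.05) or Junb (-0.13). Thbs1, which encodes the latent TGF-beta activator thrombospondin 1, was under the level for a test with 0 and 2 reads against 23 and 13 (pooled ratio 17.7, exact 95% interval 4.55 to 152). Of the 15, 3 entered the test through their TGF libraries only, Ldlrad4 and Timp1 among them, so these counts and the median are a description of the genes that reached the level.

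**Figure D2:**
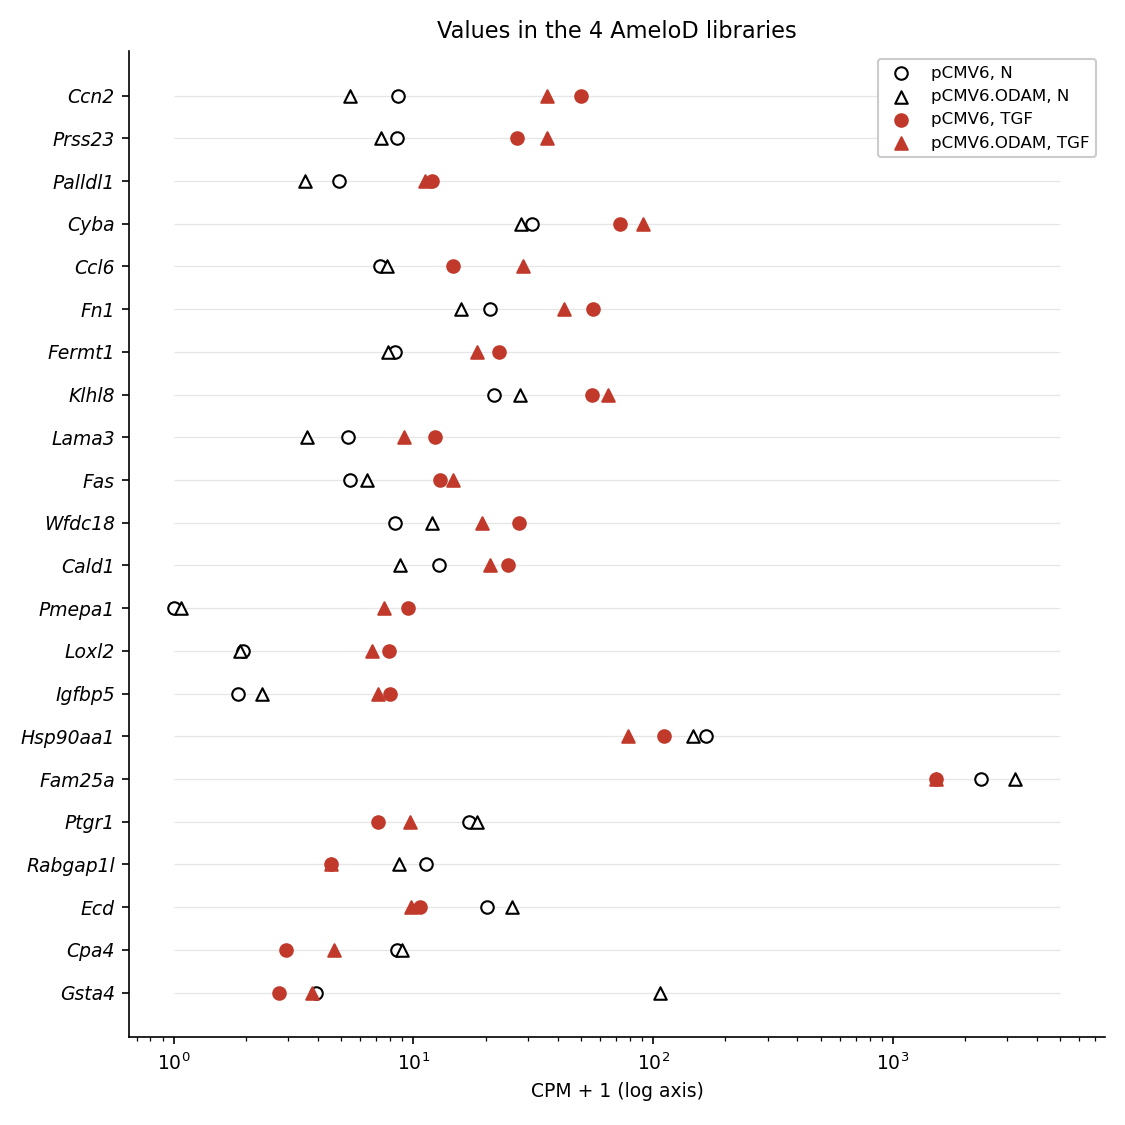
Level of each named gene in the 4 AmeloD libraries (horizontal log axis, CPM + 1; open black symbols N, filled red symbols TGF; circles pCMV6, triangles pCMV6.ODAM). The upper rows are genes that rose and the lower rows genes that fell; in every row the red symbols lie to 1 side of the black ones, and in Gsta4 1 open triangle at 105.9 CPM lies far from the other symbols.

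Of 14 tested matrix and remodelling genes 2 rose, 0 fell and 12 did not pass (median 0.40). Loxl2 and Timp1 among them reached the level for a test in the TGF libraries only, so the count and the median describe the genes that reached it. Fn1 was at 19.97 and 14.8 CPM under N and 55.2 and 41.3 CPM under TGF. The change was the same in both pairs, 1.42, and the fit gave 1.42 ± 0.18 (adjusted p = 1.05e-05). Loxl2, an enzyme that crosslinks collagen and elastin, was at 0.946 and 0.890 CPM against 6.93 and 5.71 CPM. It was read 10 and 12 times under N and 75 and 78 times under TGF (1.93 ± 0.25, adjusted p = 1.74e-05). Collagen genes did not pass: Col3a1, Col5a2 and Col7a1 had changes of 0.37, 0.60 and 0.67, with adjusted p from 0.265 to 0.487. The matricellular gene Sparc (0.53, adjusted p = 0.219) and the matrix protease gene Mmp14 (-0.13, adjusted p = 0.900) did not pass either. Prss23, a secreted serine protease (chromosome 1, 143401396 to 143422091), was at 7.57 and 6.30 CPM under N and 26.1 and 35.04 CPM under TGF (1.98 ± 0.21, adjusted p = 4.76e-07). No loss of its call was counted in any alternative, those with 1 library left out included.

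Genes of chains of the anchoring laminin of epithelial basement membranes rose. Lama3 (alpha 3) was at 4.35 and 2.60 CPM under N and 11.3 and 8.12 CPM under TGF (1.27 ± 0.24, adjusted p = 0.00238). Lamb3 (beta 3) was at 27.2 and 21.5 CPM against 48.2 and 43.5 CPM (0.90 ± 0.17, adjusted p = 0.00270). Neither overlapped between the groups, and their changes in the pairs ran from 0.81 (Lamb3, pCMV6) to 1.34 (Lama3, pCMV6.ODAM). The Lamb3 call was lost without AmeloD pCMV6.ODAM TGF (adjusted p = 0.0844). Of 15 tested laminin and integrin genes 4 rose, 0 fell and 11 did not pass (median 0.56). This too is a description of the genes that reached the level, since Itgav and Itgb6 did so in the TGF libraries only. Itgb1, the beta chain of many matrix receptors, was among the 4, at 123 and 103 CPM against 170 and 164 CPM (0.56 ± 0.14, adjusted p = 0.0424). It was the smallest of the called changes and was lost without each of 7 libraries, with an adjusted p of up to 0.440 without AmeloD pCMV6.ODAM N, and with TMM or same-median scaling, edgeR and DESeq2 (0.0557 to 0.152). The hemidesmosome genes Itga6, Itgb4 and Col17a1 had changes of 0.30, -0.04 and -0.38 and did not pass, and the laminin alpha 5 gene Lama5 had -0.64 (adjusted p = 0.324). Fermt1, which encodes kindlin-1, an activator of integrins, rose from 7.38 and 6.82 CPM to 21.8 and 17.5 CPM (1.34 ± 0.20, adjusted p = 0.000181).

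Of 20 tested actin and contractile genes 4 rose, 0 fell and 16 did not pass, and the median change was 0.40. The estimate was above 0 in all 20, with the deposited CPM and under TMM, same-median, edgeR and DESeq2 scaling, while 55.1% of all tested genes lay above 0 with the deposited CPM. Actb, cytoplasmic beta-actin, was at 340 and 262 CPM under N and 499 and 479 CPM under TGF (0.71 ± 0.13, adjusted p = 0.00247). Tpm1, which coats actin filaments, was at 116 and 69.6 CPM against 160 and 181 CPM (0.91 ± 0.17, adjusted p = 0.00254). The rise of Tpm1 was uneven, 0.46 in the pCMV6 pair and 1.36 in the pCMV6.ODAM pair. Cald1, caldesmon, was at 11.8 and 7.79 CPM against 23.7 and 19.8 CPM (1.10 ± 0.20, adjusted p = 0.00226), and Pdlim7, an adaptor on actin fibres, at 1.99 and 1.33 CPM against 5.27 and 5.27 CPM (1.25 ± 0.26, adjusted p = 0.00923). The call of Actb was lost without AmeloD pCMV6.ODAM TGF (adjusted p = 0.0728). That of Cald1 was lost without AmeloD pCMV6.ODAM N (0.138), and Tpm1 was lost without either of these libraries (0.269 without pCMV6.ODAM N, 0.233 without pCMV6.ODAM TGF). Pdlim7 was lost without each of 3, with up to 0.313 without pCMV6.ODAM TGF. Myl6, a myosin light chain, and Flna, filamin A, had 0.39 (adjusted p = 0.150) and 0.64 (adjusted p = 0.186). The smooth muscle actin gene Acta2 had 4 and 7 reads under N and 5 and 23 under TGF, and was not tested.

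Other actin-bound genes, named after their values were seen, also rose. Tmsb10, which encodes the actin monomer-binding thymosin beta 10, had the largest mean share of the table's reads among tested genes. It was at 4754 and 5861 CPM under N and 7466 and 10580 CPM under TGF, or 3.02% and 3.51% against 4.46% and 6.16% of the table's reads (0.75 ± 0.11, adjusted p = 6.64e-05). Both TGF libraries were higher, with the pCMV6.ODAM TGF library the highest. The Tmsb10 call held without each library, but was lost with TMM scaling (0.70, adjusted p = 0.0535) and in both fits of the 4 AmeloD libraries alone (up to 0.281). Phldb2 and Arhgef5, a cortical adaptor and a guanine nucleotide exchange factor, had changes of 1.01 and 0.97. Arhgdia, a GDP dissociation inhibitor, had 0.73, and the LIM protein genes Fhl2 and Pdlim4 had 0.94 and 1.05. These 5 calls were each lost without at least 1 AmeloD library: the highest adjusted p was 0.133 for Phldb2 without pCMV6 TGF, 0.259 for Arhgef5 without pCMV6.ODAM TGF, 0.271 for Arhgdia without pCMV6 N, 0.585 for Fhl2 without pCMV6.ODAM TGF and 0.437 for Pdlim4 without pCMV6.ODAM N.

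Epithelial junction genes did not change by the test: 22 were tested, 0 passed and the median was 0.06. The E-cadherin gene Cdh1 had a mean of 7.51 CPM under N and 7.36 CPM under TGF (-0.04, adjusted p = 0.984), and the desmoplakin gene Dsp 87.2 and 64.8 CPM (-0.42, adjusted p = 0.435). Of 10 tested keratins 1 rose, 0 fell and 9 did not pass (median -0.11). Krt7, a keratin of simple epithelia, was at 147 and 126 CPM under N and 215 and 291 CPM under TGF, with the pCMV6.ODAM TGF library the highest (0.87 ± 0.16, adjusted p = 0.00181). Without that library its adjusted p was 0.238. The stratified epithelial keratins Krt5, Krt16 and Krt17 had changes of -0.22, 0.05 and -0.08. Of 15 tested cornified envelope genes 0 passed; their median was -0.34 and 2 lay above 0 under each of the 5 scalings. Among them Krtdap was at 102 and 120 CPM under N and 68.6 and 82.9 CPM under TGF (-0.55 ± 0.17, adjusted p = 0.143). Krtdap did not overlap between the groups, but the test did not separate it from the spread. Of 6 tested enamel and ameloblast genes 0 passed, and of 5 Hedgehog pathway genes 0 passed. Of 11 tested progenitor and signalling genes 1 rose: Igfbp5, which encodes a binding protein of insulin-like growth factors.

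**Figure D3:**
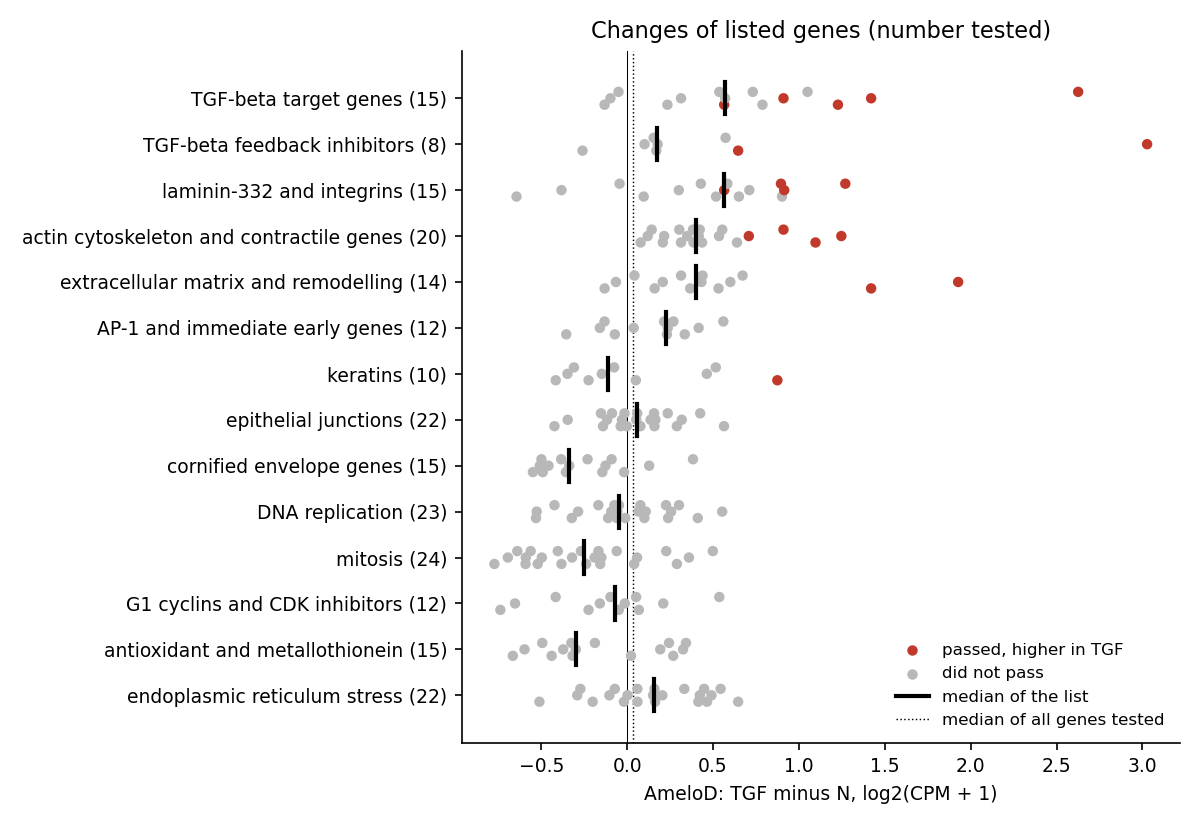
Changes of the tested members of 14 gene lists in AmeloD cells (horizontal axis, TGF minus N in log2(CPM + 1); each point is a gene, red where it rose, grey where it did not pass; the black bar is the list's median and the dotted line the median of all tested genes, 0.03). The medians lie at 0.57 for TGF-beta targets, 0.56 for laminins and integrins and 0.40 for actin genes. They lie at -0.34 for cornified envelope genes and -0.25 for mitosis genes. Of the TGF-beta targets 3, and of the laminins and integrins 2, reached the level for a test in the TGF libraries only. So did 2 of the matrix genes and 1 of the feedback inhibitors. In the N libraries only, 1 mitosis gene and 1 antioxidant or metallothionein gene reached it.

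Igfbp5 was at 0.852 and 1.33 CPM under N and 7.02 and 6.15 CPM under TGF (1.86 ± 0.22, adjusted p = 1.90e-06), on 9 and 18 reads against 76 and 84. Igfbp3, another binding protein gene, lay the other way, at 216 and 169 CPM against 127 and 134 CPM, and missed the threshold (-0.55 ± 0.15, adjusted p = 0.0815). Of 7 tested genes of the insulin-like growth factor axis Igfbp5 alone passed. Of 9 tested YAP and TEAD targets 2 rose, Ccn2 and the tissue factor gene F3, which starts coagulation. F3 had 4 and 6 reads under N and 27 and 41 under TGF (1.41 ± 0.27, adjusted p = 0.00318). It reached the level for a test in the TGF libraries only and was lost without AmeloD pCMV6.ODAM TGF (adjusted p = 0.114).

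Proliferation genes did not pass the test in AmeloD cells. Of 23 tested replication genes 0 passed (median -0.05, 10 above 0), and of 24 mitosis genes 0 passed (median -0.25, 6 above 0 with the deposited CPM and 5 under the other 4 scalings). The mitotic cyclin gene Ccnb1 had means of 20.4 CPM under N and 14.4 CPM under TGF (-0.50, adjusted p = 0.284), and the proliferation marker gene Mki67 had 8.90 and 6.74 CPM (-0.40, adjusted p = 0.544). Of 12 G1 cyclins and CDK inhibitors 0 passed. The cyclin D1 gene Ccnd1 was at 45.8 and 39.0 CPM under N and 26.7 and 26.3 CPM under TGF (-0.65 ± 0.19, adjusted p = 0.113). Ccnd1 did pass in 4 of the 20 alternatives, with a change of -0.70 to -0.74 and an adjusted p of 0.0351 to 0.0481: TMM and same-median scaling, edgeR and DESeq2. Both TGF libraries lay below both N libraries. Of 12 AP-1 and immediate early genes, 15 hypoxia and glycolysis genes, 22 endoplasmic reticulum stress genes and 15 cholesterol synthesis genes 0 passed, with medians of 0.22, -0.06, 0.15 and 0.13. The hypoxia-induced gene Ndrg1 came nearest, at 19.9 and 20.2 CPM against 11.9 and 11.2 CPM (-0.74 ± 0.19, adjusted p = 0.0638).

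Of 15 tested p53 targets and apoptosis genes 1 rose, the death receptor gene Fas. Fas was at 4.45 and 5.41 CPM under N and 11.9 and 13.7 CPM under TGF (1.22 ± 0.24, adjusted p = 0.00338), and was lost without AmeloD pCMV6 N (adjusted p = 0.0638) and without pCMV6.ODAM TGF (0.101). The BH3-only gene Pmaip1 had 1.10 ± 0.29 and missed the threshold (adjusted p = 0.0734). Of 6 tested cytokine and interferon genes 1 rose, the alarmin gene Il1a, from 0.662 and 0.742 CPM to 2.03 and 3.29 CPM (1.08 ± 0.27, adjusted p = 0.0421). Il1a reached the level for a test in the TGF libraries only. Its call was lost without each of 7 libraries, with an adjusted p of up to 0.508 without AmeloD pCMV6.ODAM TGF. Ccl6, a chemokine gene, was at 6.25 and 6.75 CPM under N and 13.7 and 27.6 CPM under TGF (1.45 ± 0.26, adjusted p = 0.00182). It was higher in both TGF libraries, most in pCMV6.ODAM, and was lost without that library (adjusted p = 0.238) and without pCMV6.ODAM N (0.0642).

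Further large rises, for genes whose mean reached 5 CPM, were of Palldl1, Cyba, Klhl8 and Wfdc18. Cyba, the membrane subunit of NADPH oxidases, was at 30.3 and 27.1 CPM under N and 72.0 and 89.8 CPM under TGF (1.46 ± 0.17, adjusted p = 1.90e-06). Klhl8, a substrate adaptor of a cullin ubiquitin ligase, was at 20.7 and 26.9 CPM against 54.8 and 64.1 CPM (1.29 ± 0.17, adjusted p = 1.83e-05). Each of these was clear in both pairs, and neither call was counted as lost in any alternative. Palldl1 was at 3.88 and 2.52 CPM against 10.99 and 10.2 CPM (1.48 ± 0.26, adjusted p = 0.00110) and was lost without AmeloD pCMV6.ODAM N (adjusted p = 0.0725). Wfdc18, a small secreted protein gene, was at 7.38 and 10.98 CPM against 26.5 and 18.3 CPM (1.20 ± 0.27, adjusted p = 0.0149), and was lost without pCMV6 N (0.140) and without pCMV6 TGF (0.232). Named after their values were seen, the galectin gene Lgals1 rose from 102 and 105 CPM to 213 and 172 CPM (0.88 ± 0.14, adjusted p = 0.000201) and the EGF receptor ligand gene Areg from 26.7 and 26.5 CPM to 44.4 and 60.1 CPM (0.93 ± 0.18, adjusted p = 0.00391). Areg was lost without AmeloD pCMV6.ODAM TGF (adjusted p = 0.313). Tsc22d1, a leucine zipper protein gene known as induced by TGF-beta, rose from 18.7 and 16.5 CPM to 36.8 and 31.6 CPM (0.92 ± 0.17, adjusted p = 0.00231). Ncam1, a neural cell adhesion gene, had 0 and 2 reads under N and 16 and 18 under TGF (1.16 ± 0.27, adjusted p = 0.0221; pooled ratio 16.7, exact 95% interval 4.28 to 143), and its limma call was lost without each of 6 libraries, with an adjusted p of up to 0.187 without AmeloD pCMV6 TGF. Of the 53 risen genes 9 reached 1 CPM in the TGF libraries only, Pmepa1, Loxl2, F3, Ncam1 and Il1a among them, as did 190 of all 7155.

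Of the 11 genes that fell, 4 are known for detoxification of aldehydes, reactive alkenals or xenobiotics: Adh7, Ptgr1, Gsta2 and Gsta4. That grouping was made after their values were seen, and another glutathione transferase gene, Gstm2, rose. Gstm2 was at 7.002 and 7.56 CPM under N and 14.04 and 16.1 CPM under TGF (0.95 ± 0.21, adjusted p = 0.0157), and was lost without each of 3 AmeloD libraries, with an adjusted p of up to 0.276 without pCMV6.ODAM TGF. Ptgr1, a reductase of prostaglandins and leukotrienes, was at 16.1 and 17.4 CPM under N and 6.10 and 8.63 CPM under TGF (-1.10 ± 0.20, adjusted p = 0.00165). Adh7, a class IV alcohol dehydrogenase that oxidises retinol, had 22 and 25 reads under N and 1 and 2 under TGF (-1.41 ± 0.28, adjusted p = 0.00536). The pooled reads were 15.95-fold higher under N, with an exact 95% interval of 5.14 to 80.1. Gsta2 was at 2.55 and 1.85 CPM against 0.185 and 0.732 CPM (-1.15 ± 0.27, adjusted p = 0.0229). The Adh7 call was lost without pCMV6 N (adjusted p = 0.0547) and without pCMV6.ODAM TGF (0.0728), and Gsta2 without each of 4 libraries (up to 0.304 without AmeloD pCMV6 TGF). Gsta4 was at 2.93 and 105.9 CPM under N and 1.76 and 2.78 CPM under TGF (-2.67 ± 0.55, adjusted p = 0.00641). Its call rested on the pCMV6.ODAM N library: without it the change was -0.46 (adjusted p = 0.805). Alpha class glutathione transferases are close paralogs, and no source used here says how reads that fit several of them were assigned. Of 15 tested antioxidant and metallothionein genes 0 passed (median -0.30), among them Nqo1 with -0.67 (adjusted p = 0.0975).

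Among the other falls, Fam25a was at 2333 and 3230 CPM under N and 1519 and 1510 CPM under TGF (-0.86 ± 0.12, adjusted p = 2.21e-05). Both TGF libraries were low, and the call was kept without each library. Hsp90aa1, the inducible HSP90 gene, was at 165 and 145 CPM against 110 and 77.7 CPM (-0.74 ± 0.15, adjusted p = 0.00874), and was lost without AmeloD pCMV6.ODAM TGF (adjusted p = 0.349). Ecd, a splicing and cell cycle regulator gene, was at 19.2 and 24.8 CPM against 9.70 and 8.78 CPM (-1.16 ± 0.21, adjusted p = 0.00226), and was lost without the same library (0.0933). Cpa4, a carboxypeptidase gene, had 7.57 and 7.94 CPM against 1.94 and 3.66 CPM (-1.24 ± 0.26, adjusted p = 0.00874; lost without pCMV6 N at 0.0944 and without pCMV6 TGF at 0.182). Tnni2, fast skeletal troponin I, had 23 and 37 reads against 4 and 7 (-1.26 ± 0.26, adjusted p = 0.00656; lost without pCMV6.ODAM N at 0.0775 and without pCMV6.ODAM TGF at 0.0679). The trafficking genes Rabgap1l and Rab40b fell by 1.14 and 1.08 and were lost without each of 3 and 6 libraries, with an adjusted p of up to 0.130 without AmeloD pCMV6 TGF and 0.238 without pCMV6.ODAM TGF. Adh7, Gsta2, Rab40b and Tnni2 reached 1 CPM in the N libraries only.

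The pairs that share a plasmid label are single libraries against single libraries and carry no test. Over all 7155 genes the changes of the pCMV6 pair and the pCMV6.ODAM pair had a Pearson r of 0.20, and 0.35 over the 1557 genes whose mean was 10 CPM or higher; this is across genes, which are not independent replicates. All 64 called genes had the same sign in both pairs. The pCMV6.ODAM pair had the larger change in 38 of the 64. Ccn2 changed by 2.52 and 2.73 and Fn1 by 1.42 and 1.42 in the pCMV6 and pCMV6.ODAM pairs, which is nearly level. Others were uneven: the chemokine gene Ppbp changed by 0.38 and 1.42, Hnrnpk, an RNA-binding protein gene, by 0.49 and 1.41, Wfdc18 by 1.72 and 0.69 and Gsta4 by -0.51 and -4.82. Without the AmeloD pCMV6.ODAM TGF library the adjusted p of Ppbp was 0.697 and that of Hnrnpk 0.648.

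**Figure D4:**
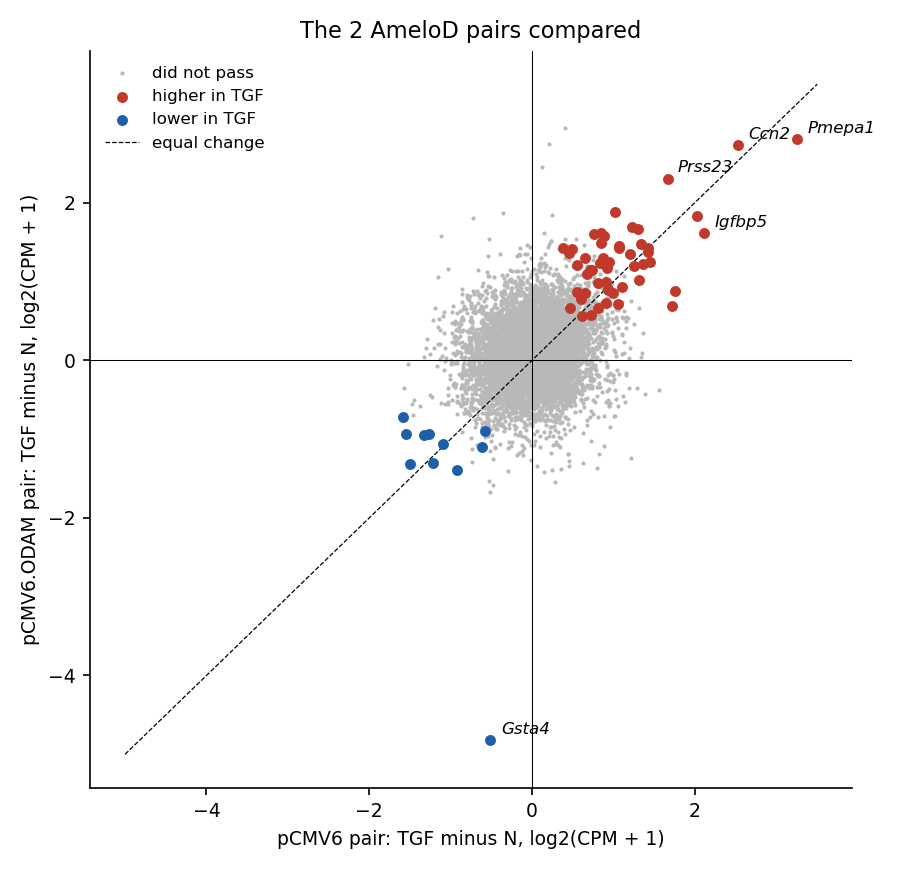
Change of each tested gene in the pCMV6 pair (horizontal axis) and in the pCMV6.ODAM pair (vertical axis) of AmeloD libraries, both as TGF minus N in log2(CPM + 1); each point is a gene, red where it rose, blue where it fell and grey where it did not pass. All coloured points lie in the lower left or upper right quadrant, and Gsta4 (-0.51, -4.82) is far below the dashed line of equal change.

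In Control cells the same test called 27 of the 7155 genes (0.377%), 26 higher and 1 lower under TGF. Of these, 23 were also among the 64 AmeloD genes, which is 85.2% of the Control calls and 35.9% of the AmeloD calls. The genes tested were chosen by their AmeloD levels, and 656 of them did not meet the same rule in Control. Genes that met it in Control alone were not tested. Both comparisons also used the same residual spread for each gene, so the 2 sets of calls are not independent. Of the 53 AmeloD rises 52 had a Control estimate above 0, as had 57.0% of all genes, and 10 of the 11 falls had one below 0. The AmeloD genes were chosen by their AmeloD values, so the sizes in the 2 genotypes are not on an equal footing. The median of the rises was 1.08 in AmeloD and 0.70 in Control, and of the falls -1.15 and -0.46. The difference between the responses was tested directly: 0 genes passed in limma (0%), with 307 at an unadjusted p under 0.05 and a lowest adjusted p of 0.999. edgeR and DESeq2 on the recovered reads also called 0, with 353 and 123 at an unadjusted p under 0.05. With 1 library left out the number ran from 0 to 6: 5 without AmeloD pCMV6 N, 6 without AmeloD pCMV6 TGF, 2 without Control pCMV6 TGF and 0 without each of the others.

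Several members had close to the same change on the log2(CPM + 1) scale in both genotypes, from different levels. That scale understates changes of low genes, so equal values at unlike levels need not be equal fold changes. Pmepa1 changed by 2.99 in Control, with an AmeloD minus Control difference of 0.04 (95% interval -0.75 to 0.83). Ccn2 was at 1.31 and 1.42 CPM under N and 14.7 and 12.3 CPM under TGF in Control, below its AmeloD levels at each label, and the difference of the changes was 0.01 (-0.62 to 0.65). Igfbp5 stood higher in Control, at 10.3 and 14.4 CPM against 46.6 and 60.5 CPM, with a difference of -0.17 (-0.80 to 0.45). Lama3 and Klhl8 had differences of -0.01 and 0.07. The intervals of these 5 genes all reached from -0.43 or lower to 0.45 or higher, so a difference within that range was not excluded. A larger difference need not have passed either: that of Ift27 was 1.28, with a limma adjusted p of 0.999.

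Of the 64 AmeloD genes, 18 had an unadjusted p under 0.05 for the difference, and none of these passed adjustment (limma adjusted p = 0.999). Actb was at 354 and 273 CPM under N and 344 and 349 CPM under TGF in Control, a change of 0.15 against 0.71 in AmeloD (difference 0.55, 95% interval 0.17 to 0.94). Fn1 changed by 0.81 in Control, from 35.5 and 30.3 CPM to 53.1 and 64.4 CPM (difference 0.61, 0.08 to 1.13). Ccl6 was at 0.751 and 0.813 CPM under N and 0.844 and 1.69 CPM under TGF in Control, on 12 and 12 reads against 15 and 26 (difference 1.13, 0.38 to 1.88). Ecd was at 20.1 and 18.4 CPM against 13.2 and 23.3 CPM in Control, overlapping between the labels (difference -1.04, -1.65 to -0.43). Adh7 was at 0.501 and 0.339 CPM under N and 0.0563 and 1.04 CPM under TGF in Control, so its Control pairs went opposite ways (-0.51 and 0.61). Tnni2 had 2 reads in each Control N library and 0 in each Control TGF library. Ift27, an intraflagellar transport gene, was higher under TGF in both AmeloD pairs (0.84 and 1.24) and had a Control estimate of -0.24. Its AmeloD call was lost without each of the 8 libraries, with an adjusted p of up to 0.462 without AmeloD pCMV6.ODAM TGF.

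**Figure D5:**
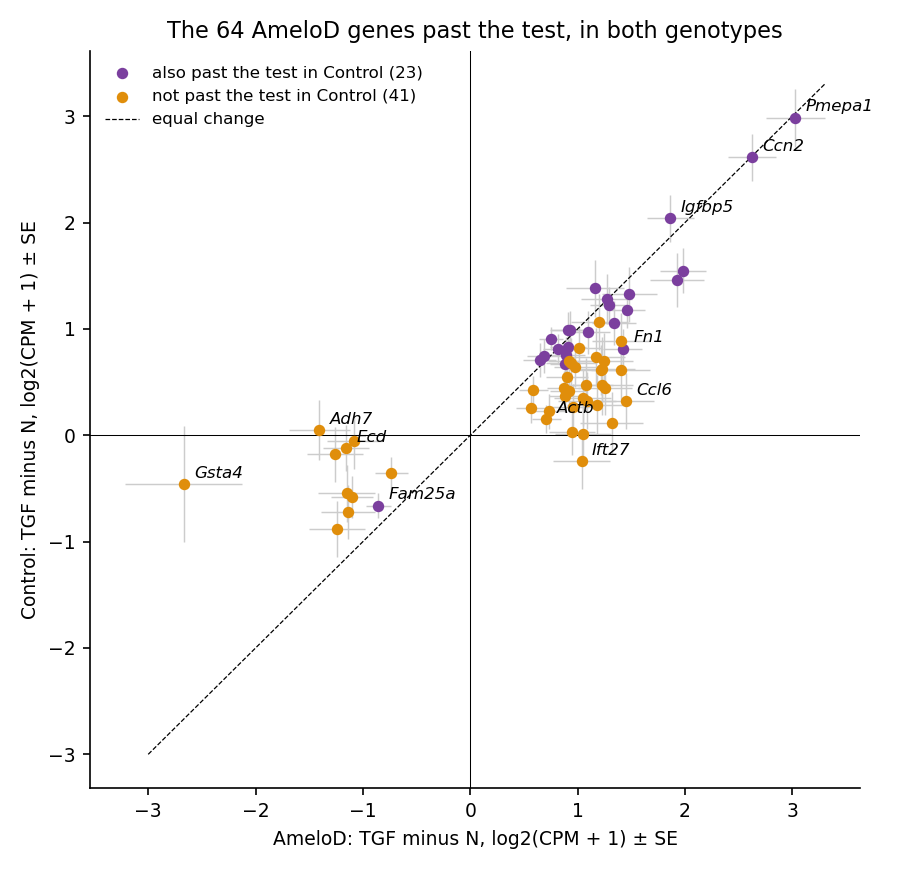
Change under TGF of the 64 called AmeloD genes in AmeloD (horizontal axis) and in Control libraries (vertical axis), TGF minus N in log2(CPM + 1) with bars of ± SE; purple points (23) passed the test in Control as well, orange points (41) did not. Pmepa1 and Ccn2 lie on the dashed line of equal change, and Actb, Ccl6, Ecd and Adh7 lie nearer to 0 in Control.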

How the data were processed

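Per the labels' protocols, SF2 RNA was made into 3′-end libraries with the QIAseq UPX 3' kit, sequenced as paired ends on a DNBSEQ-G400, trimmed, aligned to mRatBN7.2 and counted per gene. The versions were STAR 2.7.10a and featureCounts 2.0.1, per the submitters' processing notes. No source used here gives the strand setting, the use of molecular identifiers or the treatment of shared reads. What the authors deposited is CPM per gene and library; whole reads came back for 100% of values within 0.01, and recovered counts were used for read ratios and for edgeR and DESeq2 as alternatives.

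Log2(CPM + 1) values were tested with limma 3.58.1 (R 4.3.3, eBayes with trend) over all 8 libraries, with genotype, TGF within each genotype and the plasmid label as terms (3 residual degrees of freedom), two-sided, adjusted by Benjamini-Hochberg over 7155 genes at 0.05. The plasmid term is shared by the genotypes, so it pairs the libraries only as far as the plasmid effect is the same in both. With a genotype by plasmid term, which pairs them within each genotype, 19 of the 64 calls were lost. Alternatives used edgeR 4.0.16, DESeq2 1.42.0, other pseudocounts, filters, scalings and terms, and left out each library. The limma step was run on simulated reads with the same dispersion for every gene, no plasmid effect and no outlying library. That setting is simpler than the data, so the run does not measure the error rate here.

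The members and the 32 gene lists (560 symbols, 549 matched, 3 by an older symbol, 315 tested) were chosen with earlier results of these data known. Named genes were the 12 largest rises and falls that passed, had a mean of 5 CPM or more and went 1 way in both pairs, for each list the 4 largest called changes at most or else the 2 highest genes, and the tested feedback and target genes. The report says where it goes beyond this rule. Promoters are RefSeq windows of GRCr8 and were searched on both strands; those of Smad7 and Skil, which were not tested, are not printed. Results of some genes are not reported here. Exact intervals and floors (3 reads) cover counting error only.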

Additional observations from a re-analysis of the deposited data

How the results depend on the processing

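The number of AmeloD genes past the test was 64. It ran from 45 to 72 with other pseudocounts, filters, scalings and terms and with edgeR (55) and DESeq2 (46) on recovered reads. It moved by more than 1.5 times with the 4 AmeloD libraries alone, to 9 with the plasmid label as a term and to 18 without it; the cause was not tested beyond the loss of libraries and degrees of freedom that these fits bring. With 1 library left out it ran from 33 to 120. Of the 64 calls, at most 16 held in all 18 other alternatives and at most 9 in all 20. These are upper limits, since the 11 losses counted for DESeq2 are too few for its 46 calls. Of the 64 calls, 0 reversed their direction in any alternative. The number of Control genes was 27, moved to 15 with no filter on low values, and ran from 3 to 44 with 1 library left out. The number of genes whose response differed between the genotypes was 0 in each alternative except with 1 library left out, where it ran from 0 to 6. Depth limits the low genes: 22 of the 64 called genes had a mean under 5 CPM, and 8366 genes with a read in AmeloD were not tested.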

Other observations

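The neutrophil-attracting chemokine genes Cxcl1, Cxcl3 and Cxcl6 did not pass the test in AmeloD cells (limma adjusted p = 0.0812, 0.0652 and 0.164), and their pairs were unlike; they were named after their values were seen. Cxcl6 was at 83.5 CPM (pCMV6) and 34.7 CPM (pCMV6.ODAM) under N and at 90.7 and 193.8 CPM under TGF in AmeloD. It was thus level in the pCMV6 pair and higher under TGF in the pCMV6.ODAM pair. In Control the order was the other way round, with 69.4 and 68.3 CPM under N and 208.7 CPM (pCMV6) and 25.0 CPM (pCMV6.ODAM) under TGF. Cxcl1 followed the same order, at 4.26, 1.11, 5.08 and 13.2 CPM in AmeloD and 2.50, 2.78, 5.57 and 0.650 CPM in Control (pCMV6 N, pCMV6.ODAM N, pCMV6 TGF, pCMV6.ODAM TGF).

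Spink5, which encodes the epidermal protease inhibitor LEKTI, had the opposite order, at 112.6, 217.5, 78.6 and 67.3 CPM in AmeloD and 52.2, 42.7, 33.0 and 155.2 CPM in Control. It did not pass in AmeloD (-1.10 ± 0.30, limma adjusted p = 0.0812). These genes rest on single libraries, and each combination of labels had 1 library, so an effect of the combination and a peculiarity of the library cannot be told apart.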
